A study of Homo sapiens with 6 samples.

Results

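A set of 10 genes of heterochromatin silencing were followed across the 6 libraries of a SETD5 knockdown: TRIM28, SETDB1, ATF7IP, MPHOSPH8, SUV39H1, CBX1, CBX3, CBX5, DAXX and ATRX. They were chosen by symbol, with earlier results of these data known. All 10 were found among the 14200 genes of the deposited table. The cells were Huh7, an established line of human hepatocellular carcinoma, grown in DMEM with serum. In one group SETD5, a gene for a SET-domain protein of chromatin, had been silenced with siRNA delivered by RNAiMAX (the SETD5-deficient cells, here the knockdown). The other group was labelled control, and what these cells were transfected with is not given in the sources used here. Each group had 3 libraries of poly(A)-selected RNA, and nothing in the labels says that they came from separate cultures, so the p-values below describe the scatter of these libraries alone, and that scatter may be technical. Levels are in CPM, read counts corrected for how deeply each library was sequenced.

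Heterochromatin is the compact, mostly silent part of the genome, and its central mark is methylation of histone H3 at lysine 9. Zinc finger proteins with a KRAB domain bring TRIM28 to repeats and other targets, and TRIM28 recruits the methyltransferase SETDB1 with its partner ATF7IP. SUV39H1 writes the same mark at pericentromeric repeats. The HP1 proteins, encoded by CBX1, CBX3 and CBX5, bind the mark through their chromodomain. MPHOSPH8, a subunit of the HUSH complex, binds it too, and DAXX and ATRX deposit the histone variant H3.3 at repeats and telomeres.

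The libraries held 14038447 to 17095417 recovered reads. SETD5 itself was at 202 to 212 CPM in the controls and 136 to 140 CPM in the knockdown, 0.664 times the control mean. Of the 8 hepatocyte markers listed, all were in the table, with AFP at 20113 CPM or more in every library. Their sum was 41222 to 42113 CPM in the controls and 37954 to 38172 CPM in the knockdown, but they did not move alike. ALB rose, with 6291 to 6597 CPM in the controls and 6813 to 6997 CPM in the knockdown. HNF4A overlapped between the groups, and the rest fell, APOB from 4014 to 4228 CPM in the controls to 2471 to 3085 CPM in the knockdown. Fibroblast markers had 4 of 6 in the table, and their sum was 169 to 178 CPM in the controls and 313 to 323 CPM in the knockdown, most of it COL1A2, while PDGFRB fell, with 22.6 to 27.3 CPM in the controls and 17.4 to 18.7 CPM in the knockdown. Immune markers had 4 of 6 in the table with sums of 261 to 287 and 629 to 707 CPM, nearly all from LYZ, while CD14 fell, with 3.43 to 3.75 CPM in the controls and 1.596 to 2.06 CPM in the knockdown. The defining immune marker PTPRC was at 0.975 to 1.78 CPM, and CD3E matched no row. Endothelial markers had 2 of 5 in the table, with a sum of at most 1.35 CPM. The part of these markers in the results below was not tested.

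Of the 10 silencing genes, 7 were higher after knockdown, 1 was lower and 2 did not pass the test. ATRX rose the most, to 1.58 times the control, and CBX5, CBX1, DAXX, ATF7IP, CBX3 and TRIM28 rose to between 1.35 and 1.06 times. SUV39H1 went the other way and fell to 0.709 times the control. SETDB1 and MPHOSPH8 were at 1.08 and 1.03 times without passing. The test was limma on the log2(CPM + 1) values, with Benjamini-Hochberg adjustment over the 12865 genes that averaged 1 CPM or more, and a threshold of 0.05. It called 52.1% of all tested genes, 25.7% as higher and 26.5% as lower, so a call by itself is common in this comparison. The median log2 change was 0.20 over the 10 genes and -0.0012 over all tested genes. When a change beyond 1.2-fold was asked for, with TREAT in limma, which called 11.4% of all tested genes, 2 of the 10 stayed higher, ATRX and CBX5, and SUV39H1 stayed lower. Control and knockdown values did not overlap for 9 of the 10, against 57.3% of all tested genes. Because the 10 were chosen with earlier results known, these counts describe them and are no independent evidence.

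**Figure D1:**
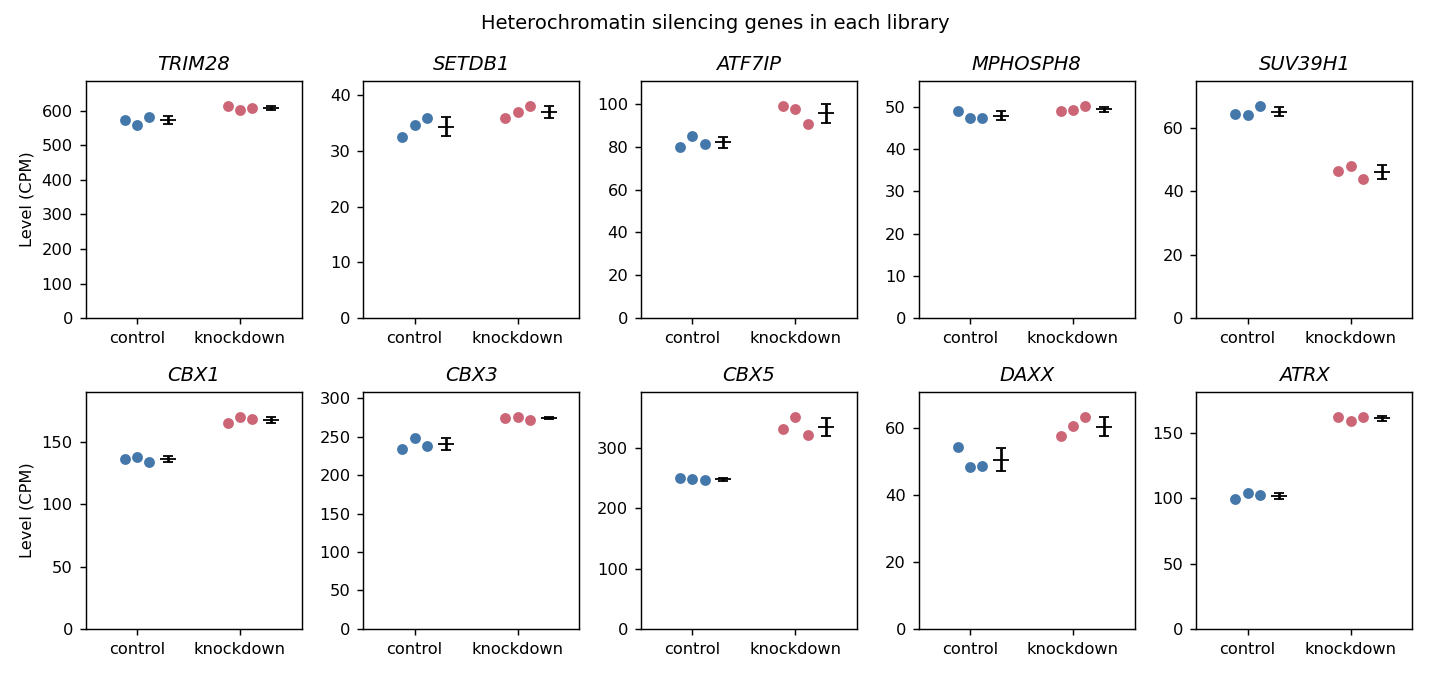
Level in CPM (vertical axis, from 0) of each silencing gene in the 3 control libraries (blue) and the 3 knockdown libraries (red), with the mean and SD in black. ATRX moves from about 102 to 161 CPM and SUV39H1 from 65.1 to 46.2 CPM, while the points of MPHOSPH8 overlap.

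**Figure D2:**
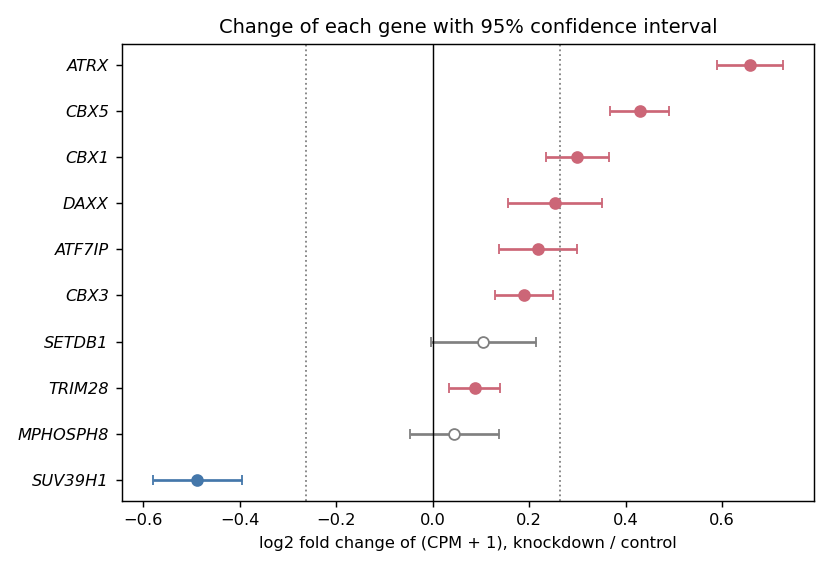
Log2 fold change (knockdown over control, horizontal axis) of each silencing gene with its 95% confidence interval from limma. Filled points passed the test (red higher, blue lower), open grey points did not, and dotted lines mark a change of 1.2-fold in each direction; only the intervals of ATRX, CBX5 and SUV39H1 lie wholly beyond them.

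TRIM28, also called KAP1, is the corepressor that KRAB zinc finger proteins recruit. It read 575, 559 and 582 CPM in the control libraries, given here and below in replicate order, and 613, 601 and 608 CPM after knockdown. All knockdown values lay above all control values, but the step was small. The group means were 572 ± 11.7 and 607 ± 5.68 CPM (SD, n = 3 each), a log2 change of 0.09 with a standard error of 0.026 (limma adjusted p = 0.00546). Between 8029 and 10171 reads stood behind each of these values, the most of the 10 genes. The TRIM28 call ended when limma was run without its mean-variance trend (adjusted p = 0.0899).

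SETDB1 is the methyltransferase that works with TRIM28, and ATF7IP holds SETDB1 in the nucleus and protects it from degradation. SETDB1 read 32.5, 34.6 and 35.9 CPM in the controls and 35.9, 37.0 and 38.0 CPM in the knockdown. The highest control and the lowest knockdown value lay side by side, at 35.87 and 35.94 CPM. The log2 change was 0.11 with a 95% interval of -0.0031 to 0.21, and limma did not call it (adjusted p = 0.0976). SETDB1 rested on 497 to 635 reads per library, the fewest of the 10. For its mean reads over the 6 libraries, counting alone gives a CV of 4.22%. The observed CV was 4.97% among the controls and 2.75% in the knockdown.

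ATF7IP read 79.9, 84.8 and 81.5 CPM in the controls and 98.8, 97.5 and 90.7 CPM in the knockdown. Every knockdown library was above every control, with knockdown replicate 3 the nearest to them. The log2 change was 0.22 with a standard error of 0.040 (limma adjusted p = 1.70e-05). The ratio of ATF7IP to SETDB1 reads was 2.39 ± 0.105 in the controls and 2.59 ± 0.185 in the knockdown (SD, n = 3), and the ratios of the groups overlapped, from 2.27 to 2.46 and from 2.39 to 2.75.

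MPHOSPH8 carries the chromodomain of HUSH, the complex that silences young retroelements and newly integrated DNA. It read 49.1, 47.3 and 47.3 CPM in the controls and 49.01, 49.2 and 50.1 CPM in the knockdown, so the groups overlapped. Its log2 change was 0.04 with a 95% interval of -0.048 to 0.14 (limma adjusted p = 0.431). That interval holds no change as large as 1.2-fold. The other HUSH and MORC genes were split, with 2 of 5 higher and 1 lower. FAM208A (TASOR), the scaffold of HUSH, fell to 0.888 times the control, from 67.9 ± 2.18 to 60.3 ± 1.85 CPM. The ATPase MORC2, which compacts chromatin at HUSH targets, rose from 83.2 ± 2.32 to 97.2 ± 1.27 CPM. FAM208B, a relative of FAM208A, rose to 1.11 times with overlapping groups, a call that a limma fit with no trend did not make (adjusted p = 0.0698), and the third HUSH subunit PPHLN1 was at 111 and 116 CPM without passing.

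SUV39H1 was the single silencing gene of the 10 that fell. It read 64.4, 64.1 and 66.7 CPM in the controls and 46.5, 48.1 and 43.8 CPM in the knockdown. The lowest control lay well above the highest knockdown library. The group means were 65.1 ± 1.43 and 46.2 ± 2.16 CPM (SD, n = 3 each), a log2 change of -0.49 with a standard error of 0.045 (limma adjusted p = 2.13e-11). Of all tested genes, 9.90% changed by at least as much in either direction. SUV39H2, the paralog with the same activity, stood at 29.6 ± 2.24 and 28.0 ± 0.482 CPM, which limma did not call ( adjusted p = 0.306). The ratio of SUV39H1 to SUV39H2 was 2.20 ± 0.179 in the controls and 1.65 ± 0.0803 in the knockdown, from 2 to 2.33 and from 1.55 to 1.69.

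The 3′ UTRs of the 10 genes were searched for the word GCACCT, which an earlier look at these data had linked to falls after knockdown, so its presence is no independent evidence. In GENCODE 29, with 1 coding transcript per gene, 3 of the 10 held it: SUV39H1 with 3 copies in 1442 bases, ATF7IP with 1 in 4862 bases and CBX5 with 1 in 10815 bases. The copies are printed below because they show where the word lies in the gene that fell and in those that rose, in capitals with 12 bases on either side.
SUV39H1 3′ UTR at base 49: ctgaagctacatGCACCTcccccactgctg
SUV39H1 3′ UTR at base 343: atatttgtttttGCACCTgcttctgcctgg
SUV39H1 3′ UTR at base 922: gcactgggtagaGCACCTggtccacgtgga
ATF7IP 3′ UTR at base 916: ctgggattacagGCACCTgtcaccatgccc
CBX5 3′ UTR at base 7446: taaactttcttaGCACCTgtacctgtttaa
The first 2 SUV39H1 copies start 49 and 343 bases into its 3′ UTR, and the third 922 bases in. ATF7IP and CBX5 held the word and rose. Of 11534 tested genes with a 3′ UTR, 28.7% held it. Among them 34.5% were lower and 24.7% higher after knockdown, against 24.2% and 27.9% of the genes without it. The part of this word in the fall of SUV39H1 was not tested.

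The HP1 genes rose together. CBX5, which encodes HP1 alpha, read 251, 248 and 246 CPM in the controls and 332, 351 and 322 CPM in the knockdown. The control values lay within a CV of 0.918%, and all knockdown values were far above them. The log2 change of CBX5 was 0.43 with a standard error of 0.030 (limma adjusted p = 2.17e-14). CBX1, which encodes HP1 beta, read 137, 138 and 134 CPM in the controls and 165, 170 and 169 CPM in the knockdown, again without overlap (log2 change 0.30, standard error 0.032, limma adjusted p = 6.36e-10). CBX3, which encodes HP1 gamma, the form also found in the bodies of active genes, read 234, 249 and 239 CPM in the controls and 275, 276 and 273 CPM in the knockdown. Its rise was the smallest of the family (log2 change 0.19, standard error 0.030, limma adjusted p = 1.48e-06). The 95% interval of CBX5, 0.367 to 0.490, lay just above that of CBX1, 0.234 to 0.364. The interval of CBX3 was 0.13 to 0.25. The changes of the 3 genes were not tested against each other.

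Summed over the family, HP1 reads went from 625 ± 8.86 to 777 ± 17.7 CPM (SD, n = 3 each), 1.24 times the control. The library sums were 622, 636 and 619 CPM in the controls and 772, 797 and 763 CPM in the knockdown. The share of CBX5 in the sum went from 39.7% ± 0.655 to 43.1% ± 0.964, and that of CBX3 from 38.5% ± 0.775 to 35.3% ± 0.634, while CBX1 was at 21.8% and 21.6%. In the controls CBX5 and CBX3 had nearly the same share, and in control replicate 2 CBX3 was the higher. In the knockdown CBX5 was above CBX3 in every library. These are shares of reads, not corrected for transcript length. Per kilobase of the main coding transcript in GENCODE 29, CBX3 was above CBX5 in both groups. The values were 113 against 21.5 CPM per kilobase in the controls and 129 against 29.05 in the knockdown. With the shortest coding transcripts CBX5 would be the higher in the controls, at 278 against 140, so the order depends on the transcript. These sums and shares are descriptions with no test. Because CBX1 has 5, CBX3 has 9 and CBX5 has 1 pseudogene named after them in GENCODE 29, the assignment of reads to these genes is uncertain. Only CBX3P2 was in the table, at a mean of 0.751 CPM in the controls and 0.654 CPM in the knockdown.

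**Figure D3:**
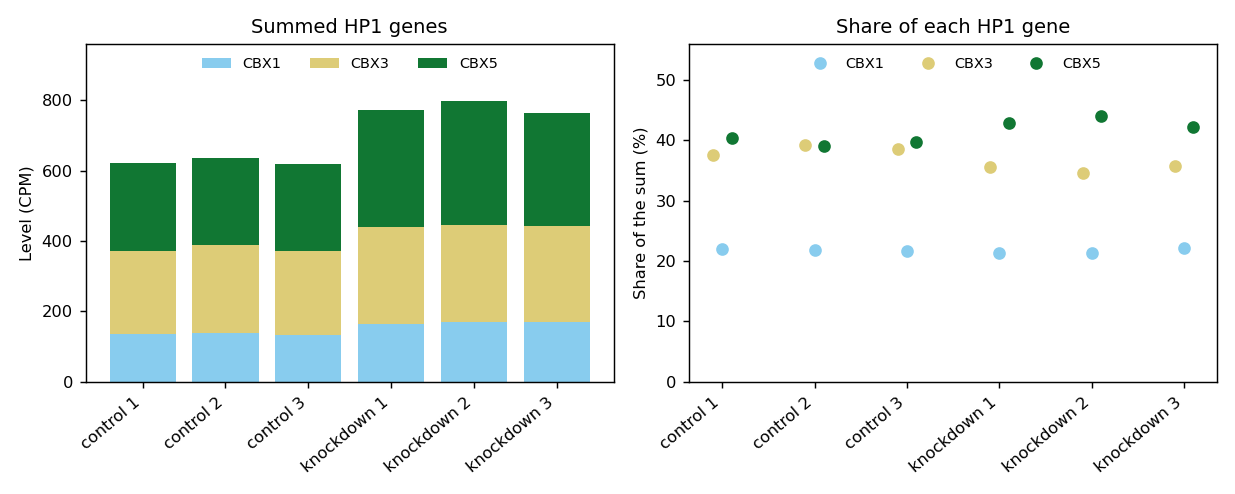
Left, level in CPM (vertical axis, not corrected for transcript length) of CBX1, CBX3 and CBX5 stacked for each of the 6 libraries. Right, the share of each gene in that sum in percent (points, 1 per library); the sum is 619 to 636 CPM in the controls and 763 to 797 CPM in the knockdown, and the share of CBX5 rises from about 39.7% to 43.1%.

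The promoters of the HP1 genes are printed here because these genes moved the same way, with that of SUV39H1 for contrast. RefSeq promoters (GRCh38.p14, 250 bases before to 50 after the start) were found for 7 of the 10 genes. Capitals mark matches, on either strand, to GGGCGG (the GC box of SP and KLF factors), CCAAT (NF-Y), the NRF1 motif, CCGGAAG (ETS factors), AAGATGGC (YY1) and GCGGGAA (E2F).
CBX1 promoter, chr17:48101137-48101436, minus strand: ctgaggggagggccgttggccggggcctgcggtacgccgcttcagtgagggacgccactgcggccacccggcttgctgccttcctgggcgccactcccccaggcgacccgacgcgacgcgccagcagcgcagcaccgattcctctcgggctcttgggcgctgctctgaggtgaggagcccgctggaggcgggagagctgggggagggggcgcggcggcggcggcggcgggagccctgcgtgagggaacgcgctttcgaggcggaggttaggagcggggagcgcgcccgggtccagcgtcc
CBX3 promoter, chr7:26201193-26201492, plus strand: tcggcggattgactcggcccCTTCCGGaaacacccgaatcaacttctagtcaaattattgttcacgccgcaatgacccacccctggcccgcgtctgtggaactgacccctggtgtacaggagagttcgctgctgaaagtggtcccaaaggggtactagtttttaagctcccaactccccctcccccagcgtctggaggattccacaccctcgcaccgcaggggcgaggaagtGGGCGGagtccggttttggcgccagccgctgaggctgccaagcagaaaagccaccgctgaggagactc
CBX5 promoter, chr12:54280073-54280372, minus strand: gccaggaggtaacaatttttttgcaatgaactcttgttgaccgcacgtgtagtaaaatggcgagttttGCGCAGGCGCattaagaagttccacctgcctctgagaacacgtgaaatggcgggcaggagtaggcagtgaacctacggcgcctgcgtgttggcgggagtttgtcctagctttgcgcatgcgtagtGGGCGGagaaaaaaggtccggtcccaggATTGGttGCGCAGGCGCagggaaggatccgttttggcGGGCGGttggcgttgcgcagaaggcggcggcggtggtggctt
SUV39H1 promoter, chrX:48696484-48696783, plus strand: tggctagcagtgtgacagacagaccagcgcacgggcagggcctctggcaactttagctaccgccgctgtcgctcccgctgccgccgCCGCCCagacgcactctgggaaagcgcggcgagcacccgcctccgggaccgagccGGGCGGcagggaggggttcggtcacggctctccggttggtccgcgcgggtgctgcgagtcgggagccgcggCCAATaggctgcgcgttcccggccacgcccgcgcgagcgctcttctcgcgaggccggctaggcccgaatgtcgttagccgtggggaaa
CBX5 held 2 NRF1 words, 2 GC boxes and 1 CCAAT box, CBX3 held 1 GC box and 1 ETS word, and SUV39H1 held 2 GC boxes and 1 CCAAT box. None of the 6 words was in the CBX1 window, which was the richest in G and C at 75.7%. Of 35116 promoters of this length, 45.0% held a GC box, 34.6% a CCAAT box, 10.3% the ETS word, 6.55% the E2F word, 5.78% the NRF1 word and 2.89% the YY1 word. The 3 HP1 windows thus shared no word of these. All 4 windows held CpG at 0.708 to 1.10 times the number their base composition gives, above the median of 0.579 over all promoters.

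CBX3 and CBX5 each start within 1000 bases of a gene for an RNA-binding hnRNP protein on the opposite strand, so position was examined next. CBX3 lies beside HNRNPA2B1, which read 1946, 2035 and 1929 CPM in the controls and 1756, 1780 and 1752 CPM in the knockdown. HNRNPA2B1 fell, with a log2 change of -0.16 and a standard error of 0.025 (limma adjusted p = 2.05e-06), while CBX3 rose. The ratio of CBX3 to HNRNPA2B1 was 0.120 to 0.124 in the controls and 0.155 to 0.157 in the knockdown. CBX5 lies beside HNRNPA1, which stood at 34.96 ± 4.10 and 36.9 ± 2.00 CPM, a difference that missed the threshold (limma adjusted p = 0.295). HNRNPA1 has many processed pseudogenes, so its level is uncertain. These neighbours were looked up after the values of the HP1 genes had been seen.

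DAXX is the histone chaperone for H3.3, and ATRX the ATPase that targets it to repeats. ATRX read 99.1, 104 and 102 CPM in the controls and 162, 159 and 162 CPM in the knockdown. All knockdown libraries lay far above all controls, and the spread within a group was at most a CV of 2.37%. The means were 102 ± 2.41 and 161 ± 1.63 CPM (SD, n = 3 each), a log2 change of 0.66 with a standard error of 0.034 (limma adjusted p = 1.92e-18). Permuting the 6 values exactly (two-sided) gave p = 0.1, which is the lowest that 3 against 3 libraries can reach. Of all tested genes, 4.85% changed by at least as much.

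DAXX read 54.6, 48.6 and 48.9 CPM in the controls and 57.6, 60.7 and 63.4 CPM in the knockdown. Control replicate 1 stood nearest to the knockdown libraries, and the controls had the widest spread of the 10 genes, a CV of 6.64%. The log2 change was 0.25 with a standard error of 0.048 (limma adjusted p = 3.40e-05). The ratio of ATRX to DAXX was 1.82 to 2.14 in the controls and 2.56 to 2.81 in the knockdown, since ATRX rose more. ATRX and SUV39H1, the genes at the ends of the range, stood at a ratio of 1.56 ± 0.0479 in the controls and 3.50 ± 0.194 in the knockdown (SD, n = 3 each).

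By a fixed measure, the 5 genes most like ATRX were ENC1, CSPP1, MECOM, MMP14 and SPINK1, out of 2928 with a mean level within 2-fold of its own. Likeness was the root mean square difference of the 6 log2 values, each taken relative to the gene's control mean, and it was 0.0246 to 0.0423 for these genes. ENC1, the closest, went from 62.2 to 98.3 CPM. With only 2 groups, the measure mostly finds genes with a log2 change near that of ATRX, here 0.62 to 0.70. The 5 genes were picked for likeness, and whether they share any regulation was not tested.

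Levels of different genes were compared per kilobase of the main coding transcript in GENCODE 29. TRIM28 was the highest in the controls, at 193 ± 3.95 CPM per kilobase, followed by CBX3 at 113 ± 3.62 and CBX1 at 56.3 ± 0.895 CPM per kilobase (SD, n = 3). SUV39H1, CBX5 and DAXX came next at 22.7 ± 0.497, 21.5 ± 0.198 and 19.4 ± 1.29 CPM per kilobase. MPHOSPH8 was at 11.3 ± 0.241 CPM per kilobase and SETDB1 the lowest at 7.86 ± 0.390. ATF7IP and ATRX, at 9.24 ± 0.285 and 9.11 ± 0.216 CPM per kilobase, overlapped in the controls, and no order between them can be given. In the knockdown ATRX was at 14.4 ± 0.146 and ATF7IP at 10.8 ± 0.492 CPM per kilobase, and SUV39H1, at 16.1 ± 0.752, was below CBX5 at 29.05 ± 1.31 and DAXX at 23.2 ± 1.10. This order holds only for the transcripts chosen. With its shortest coding transcript, of 894 bases against 11528, CBX5 would be at 278 CPM per kilobase in the controls, and CBX1, with 550 bases against 2422, at 248, both above TRIM28. SETDB1, with 1045 bases against 4370, would be at 32.8 CPM per kilobase, above SUV39H1, DAXX and MPHOSPH8, and so not the lowest.

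Related genes were taken from 13 lists with 129 genes, of which 105 were in the table and 104 tested. Of these, 53 (51.0%) were higher and 15 (14.4%) lower after knockdown, against 25.7% and 26.5% of all tested genes, with a median log2 change of 0.10. The counts given below for each list are to be read beside the same 25.7% and 26.5%. The lists were chosen with earlier results of these data known, so all these counts are descriptions and no independent evidence. Against 1.2-fold, 7 of the 104 were higher and 1 lower, where all 12865 tested genes gave 640 and 826. The share that rose by this test was thus near that of all genes, while the share that fell was smaller.

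**Figure D4:**
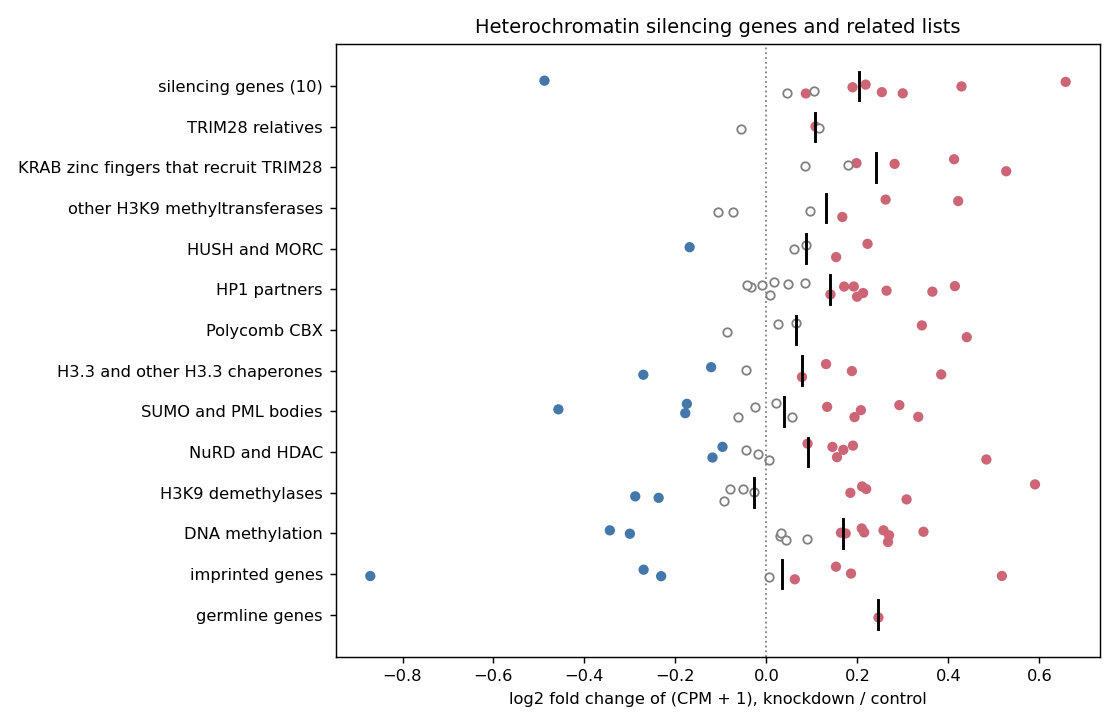
Log2 fold change (knockdown over control, horizontal axis) of every tested gene in the silencing set and 13 related lists (rows). Filled points passed the limma test (red higher, blue lower), open points did not, black bars are list medians and the dotted line is the median of all tested genes; the H3K9 demethylases have 5 higher and 2 lower genes but a median of -0.03.

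Among KRAB zinc finger genes whose proteins are known to recruit TRIM28, 4 of 6 rose and none fell. ZNF93 and ZNF91, which bind LINE-1 and SVA elements, rose from 28.1 ± 0.687 to 41.0 ± 2.06 CPM and from 37.6 ± 0.710 to 50.4 ± 1.70 CPM. ZNF202 rose to 1.23 times and ZNF445, which guards imprinted loci, to 1.15 times. ZNF274, which brings SETDB1 to zinc finger genes, was at 28.9 and 30.7 CPM without passing. ZNF10 was at 10.1 and 11.6 CPM and passed only without knockdown replicate 2 (adjusted p = 0.0179). Over all 408 tested genes with a ZNF symbol, 41.7% rose and 5.15% fell, against 25.7% and 26.5% of all tested genes, with a median log2 change of 0.16. The 21 that fell were 12 without control replicate 3. Against 1.2-fold, 24 of the 408 were higher and 3 lower, where all 12865 tested genes gave 640 and 826. Of the TRIM28 relatives, TRIM33 rose to 1.08 times, a call lost without the trend (adjusted p = 0.0707) and without control replicate 1, knockdown replicate 1 or knockdown replicate 2 in turn (0.0967, 0.0983 and 0.0582). TRIM24 was at 225 and 216 CPM and passed only without knockdown replicate 2, as lower (adjusted p = 0.0319).

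The list of other H3K9 methyltransferase genes also held partners of these enzymes. Of its 6 genes, 3 were called higher and none lower. EHMT2 and EHMT1, which encode G9a and GLP, the writers of dimethylation in euchromatin, rose from 80.4 ± 1.89 to 96.6 ± 5.40 CPM and from 86.0 ± 3.52 to 96.6 ± 2.11 CPM. ZNF644, their zinc finger partner, rose from 45.4 ± 2.04 to 61.1 ± 2.61 CPM, and WIZ, another partner, was at 47.1 and 50.3 CPM and passed only under quantile normalization (adjusted p = 0.0491). The erasers of the mark were mixed, with 5 of 11 higher and 2 lower. KDM4A, which removes trimethylation, rose from 54.6 ± 1.75 to 82.8 ± 4.46 CPM and KDM1A (LSD1) from 156 ± 1.17 to 194 ± 2.98 CPM. KDM3A fell from 81.6 ± 5.51 to 66.5 ± 0.678 CPM and KDM4C to 0.84 times the control.

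Partners of HP1 rose in 8 of 15 cases (53.3%, against 25.7% of all tested genes) and fell in none. Of these 15, 0 passed against 1.2-fold. SENP7, a SUMO protease that binds HP1 alpha, rose from 19.4 ± 0.0748 to 26.2 ± 1.01 CPM. ADNP and CHD4, which form the ChAHP complex with HP1, rose to 1.29 and 1.15 times, and the lamin B receptor LBR, which ties HP1 to the nuclear envelope, to 1.16 times. SUV420H2, which writes H4 lysine 20 methylation behind HP1, rose to 1.22 times, but not without control replicate 2 or knockdown replicate 3 (adjusted p = 0.0932 and 0.0789). HP1BP3 was at 221 and 224 CPM. The chromobox genes of Polycomb complexes, which share the chromodomain, had 2 of 5 higher: CBX6 rose to 1.38 and CBX2 to 1.27 times, while CBX8, at 13.5 and 12.7 CPM, did not pass.

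H3.3 and its other chaperones had 4 of 7 higher and 2 lower. H3F3A, the other H3.3 gene of the 8 listed, matched no row, so the sum of H3.3 reads is not known. H3F3B, an H3.3 gene, rose from 355 ± 3.24 to 404 ± 5.14 CPM, and its processed pseudogenes make the split of reads uncertain. Of the HIRA complex, UBN2 rose to 1.31 times and CABIN1 to 1.10 times, and UBN1 fell to 0.918 times, a call that ended without control replicate 1 or knockdown replicate 1 (adjusted p = 0.0821 and 0.0751). ASF1A, which hands H3 to these chaperones, fell to 0.827 times. HIRA was at 123 and 130 CPM with a limma adjusted p of 0.0493, and its call ended in 10 of 15 alternatives. Those included leaving out control replicate 2 or 3 (adjusted p = 0.0921 and 0.153) and knockdown replicate 1, 2 or 3 (0.0761, 0.0900 and 0.117).

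SUMO and PML body genes, whose products gather DAXX and ATRX in the nucleus, had 5 of 12 higher and 3 lower, and 1 lower without control replicate 2. SUMO2 rose from 215 ± 2.47 to 246 ± 6.76 CPM, and the SUMO ligases PIAS4 and PIAS1 to 1.23 and 1.16 times. SP100, a scaffold of these bodies, fell from 17.9 ± 1.502 to 12.8 ± 0.907 CPM, and SUMO3 was at 127 and 125 CPM. In the NuRD and HDAC list 6 of 11 rose and 2 fell. RBBP4, a histone-binding subunit, rose from 205 ± 7.15 to 287 ± 6.31 CPM, and CHD3, which TRIM28 binds directly, to 1.13 times. HDAC2 rose to 1.06 times, a call lost without the trend (adjusted p = 0.0769), and HDAC1 was at 200.1 and 194 CPM without passing.

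DNA methylation genes had 8 of 14 higher and 2 lower, and 5 higher without control replicate 3. The de novo methyltransferases diverged: DNMT3A rose from 55.99 ± 1.15 to 71.4 ± 3.06 CPM and DNMT3B fell from 71.5 ± 1.03 to 56.1 ± 2.49 CPM. UHRF1, which reads H3K9 methylation and recruits DNMT1, rose from 97.2 ± 1.90 to 116 ± 1.13 CPM, while DNMT1 was at 198 and 203 CPM without passing. The demethylating enzyme TET2 rose to 1.22 times and the reader MBD2 fell to 0.809 times.

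Genes known as targets of these silencing systems were read as well. Of 16 imprinted genes, 8 were in the table, 4 higher and 3 lower, and 1 to 3 higher with 1 library left out in turn, the 1 without control replicate 1. DLK1 fell from 101 ± 6.15 to 54.6 ± 3.54 CPM, MEST to 0.828 times and PLAGL1 to 0.848 times, while GRB10 rose from 92.0 ± 1.17 to 132 ± 5.80 CPM. IGF2 rose to 1.14 times, a call that ended without the trend (adjusted p = 0.0673), control replicate 1 or 2 (0.0752 and 0.0845) or knockdown replicate 1 (0.0513). PEG10 rose to 1.04 times, a call that ended without the trend (adjusted p = 0.195), control replicate 1 or 3 (0.0984 and 0.0807) or knockdown replicate 1 or 2 (0.0695 and 0.134), and it turned to a fall under quantile normalization (log2 change -0.10). Of 16 germline genes, 2 were in the table and 14 matched no row. MAGEB2 rose from 11.99 ± 0.693 to 14.4 ± 1.13 CPM, a call that ended without control replicate 3 or knockdown replicate 1 (adjusted p = 0.0581 and 0.0855).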

How the data were processed

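RNA from 6 libraries of Huh7 cells, 3 control and 3 SETD5 knockdown, was measured by stranded poly(A) RNA sequencing, per the labels' protocols. The authors deposited 1 table of log2 values for 14200 genes, named as normalized CPM in log2. The submitters' processing notes name STAR 2.5.1, R 3.3.0, hg19 and mm10 with no role, and the counting is not given in the sources used here. Raising 2 to each value and subtracting 1 gave whole multiples of a step fixed within a column (100% within 0.01), so the values are log2(CPM + 1) of whole reads, 14038447 to 17095417 per library. The 95% intervals come from limma and rest on the spread between libraries, while the counting CVs cover counting error only.

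Genes with a mean under 1 CPM (1335) were left out. limma 3.58.1 in R 4.3.3 (eBayes with trend, group as the only term, two-sided) was fitted on the log2 values of 12865 genes. A fold change on this scale understates the change of low genes. The ratios of means are computed on CPM. Alternatives were the pseudocount, the filter, scaling, trend, voom with TMM on recovered reads, TREAT, a replicate block and each library left out. The fit and the TMM scaling were tested on simulated counts in which few genes changed, unlike the real comparison, where 52.1% were called.

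The members and lists were chosen with earlier results of these data known. The rule for named genes took all 10 members, SETD5, from each list up to 4 called genes with the largest change and up to 2 further ones with the highest level, and the 5 genes most like the member that changed most. From these the text names a part, and HNRNPA1, HNRNPA2B1, CBX3P2 and the marker genes are named beside them. GENCODE 29 transcripts and RefSeq promoters are of GRCh38, matched by symbol, and no coordinate was taken from the deposited table. The counts cover every tested gene of the lists, and many of these genes, called ones among them, are not named.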

Additional observations from a re-analysis of the deposited data

How the results depend on the processing

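TREAT aside, 15 alternatives were run per gene. The calls and directions of SUV39H1, ATRX, CBX1, CBX3, CBX5, ATF7IP and DAXX held in all 15, and SETDB1 and MPHOSPH8 were called in none. The largest adjusted p of the first 7 was 0.0145 (DAXX), and TRIM28 lost its call in 1 of 15. With libraries left out in turn, the members called stayed at 7 higher and 1 lower, all genes called ranged from 2918 to 3155 higher and from 3053 to 3238 lower, and related genes from 46 to 50 higher and from 13 to 15 lower. The HP1 sum ranged from 1.23 to 1.25 times the control and the gain of the CBX5 share from 2.84 to 3.798 percentage points. Under TREAT against 1.2-fold, which asks for a larger change, the members called were 2 higher and 1 lower, all genes 640 higher and 826 lower, and related genes 7 higher and 1 lower. PEG10 turned to a log2 change of -0.10 under quantile normalization, and the cause was not tested. The median log2 change of all genes was -0.0015 to 0.0095 under the other scalings. With the replicate block 7 members were higher and 1 lower, and all genes numbered 3399 higher and 3499 lower. Same-numbered libraries correlated in their deviations by -0.011, 0.054 and 0.042 over all tested genes and by -0.029, 0.113 and 0.102 over genes above 20 CPM. The numbers were not taken to pair the libraries, because nothing in the labels says that they do. Not every library correlated best with its own number. With 497 reads at the least, counting limits SETDB1 most.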
